A study of Rattus norvegicus with 24 samples.

Results

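The potassium channel genes of the rat hippocampus were taken as every array probe whose annotated symbol starts with Kcn, the root that gene nomenclature gives to potassium channel subunits and their close regulators. There were 83 such probes for 80 genes, of 22226 probes on the array and 12978 genes that its annotation names. A probe counted as detected on an array when its detection p-value, the chance of such a signal from background, was under 0.05. It was tested when detected on at least 4 of the 24 arrays, which held for 53 of the 83 probes (52 genes) and for 11487 of all probes.

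Whole hippocampal RNA of 24 rats was hybridised to Illumina bead arrays, 1 rat per array, in 6 groups of 4. The dwarf animals (dw/dw, strain HsdOla:DWARF-dw-4) are homozygous for a spontaneous mutation that leaves the pituitary short of growth hormone (GH), and the controls (HZ) were heterozygous, so that they too carry 1 dw allele. From postnatal day 35, dw/dw rats were injected under the skin with 300 µg GH or with saline for 30 or 7 days, and HZ rats received saline for the same times. The groups were therefore dw/dw GH, dw/dw saline and HZ saline at 30 days of treatment (65 days of age), and the same 3 at 7 days (42 days of age). GH was given to dwarf rats only, and the control for the mutation was heterozygous, not wild type.

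Potassium channels let potassium leave a neuron and so set its resting potential, end each action potential and limit how often it fires. Voltage-gated channels (Kv) are built from 4 pore subunits, to which cytoplasmic or membrane-spanning auxiliary subunits bind, while inward rectifiers and leak channels act near rest and calcium- or sodium-activated channels respond to the ions that enter during activity. In the hippocampus, A-type Kv4 channels damp signals in pyramidal cell dendrites, Kv3 channels allow interneurons to fire fast, and inward rectifiers of astrocytes take up potassium released by active neurons.

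All values are normalized log2 signals, with which levels can be compared between arrays for 1 probe but not between probes. Each time point was hybridised on a slide of its own, so age and slide cannot be told apart. Each group also held the same block of positions on its slide, so a difference between groups and a difference between position blocks cannot be told apart either. The share of all probes detected ran from 44.9% to 51.2% over the arrays, and median deposited signals ran from 46 to 56.7. Of the 8 neuronal markers looked for, 7 (among them Snap25, Map2 and Camk2a) were on the array and tested, and so were all 6 interneuron markers. All 8 markers of meninges and fibroblasts were tested as well, so detection alone does not identify the tissue. In whole tissue, fewer cells of a type and less RNA per cell cannot be told apart.

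Detection differed widely between the subfamilies. All 3 probes of the Kv3 channels and all 3 of the Kv4 channels were detected on 24 of 24 arrays. A Kcnc2 (Kv3.2) probe averaged a log2 signal of 10.41 over the arrays, and Kcnd2 (Kv4.2, the main dendritic A-type subunit of pyramidal cells) averaged 10.20. Other probes far above background were Kcnh3 (Kv12.2, an ether-a-go-go type channel of the forebrain) at 10.01, Kcnk1 (TWIK1, a leak channel) at 9.50, Kcnip2 (KChIP2, a calcium-binding partner of Kv4) at 9.29, Kcnq5 (Kv7.5, a subunit of the M current that muscarinic receptors close) at 8.51 and Kcng1 (Kv6.1, a silent subunit that modifies Kv2 channels) at 8.41. Of the 9 ether-a-go-go type probes, 5 were detected on all arrays, as were 6 of the 14 inward rectifier probes, 5 of the 10 silent modifier probes and 4 of the 10 leak channel probes. Of the 9 probes of the Kv1 (Shaker type) subfamily 1, that of Kcna6 (Kv1.6), was detected on all arrays and 3 more were tested.

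**Figure D1:**
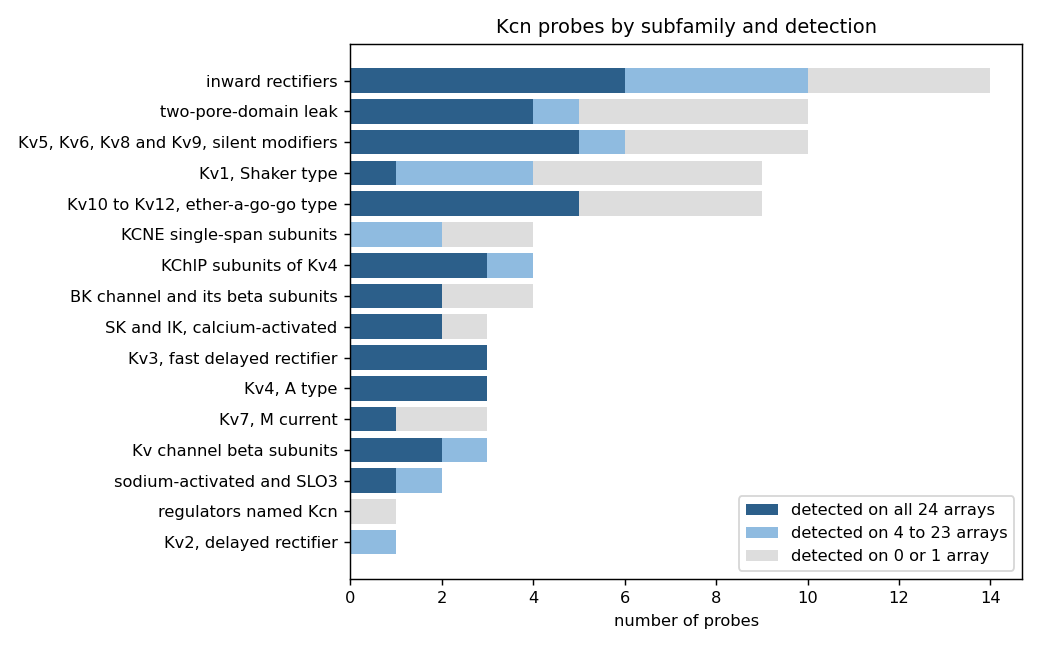
Number of Kcn probes in each of 16 subfamilies, split by the number of arrays on which the probe was detected (dark: all 24, light blue: 4 to 23, grey: 0 or 1). The inward rectifiers are the largest group with 14 probes, and the Kv3 and Kv4 probes are the only groups of 3 probes detected on every array.

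The 30 probes not tested gave no measurement of their genes here: 26 were detected on no array and 4 on 1 array. They included probes for Kcna1, Kcna2 and Kcna3 (Kv1.1 to Kv1.3), Kcnq3 (the Kv7.3 subunit of the M current), Kcnj2 (the classical inward rectifier Kir2.1), Kcnk3 and Kcnk9 (the leak channels TASK1 and TASK3), Kcnh5, Kcnh7, Kcnf1 and Kcnmb1. Several of these genes are well known in hippocampal neurons, and a dim probe does not show that the gene is silent. Kcnh8 had 1 probe detected on 24 arrays and another detected on 0, so probes for the same gene did not always report alike. The mean log2 signal of the untested probes lay between 6.004 and 6.083. Among the tested probes just above them were Kcnj3 (Kir3.1, a G-protein-activated inward rectifier), detected on 7 arrays, and a Kcna10 probe, detected on 8. Of the 53 tested probes, 18 averaged over 6.5, 10 lay between 6.2 and 6.5 and 25 lay under 6.2, limits set after the values were seen. Under 6.2 lay 47.2% of the tested Kcn probes, against 29.1% of all tested probes. There the background-corrected scale, which includes an added offset of 16, compresses differences towards 0.

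The promoters of the genes that differed between the time points are shown where a sequence was to hand. Of the 80 genes, 55 had an entry in the RefSeq promoter table of assembly GRCr8. The 250 bases before the annotated start are given below, 5′ to 3′ on the strand of the gene, for Kcnc1 (chr1:106038997-106039246, plus strand), Kcnd3 (chr2:195626066-195626315, plus strand) and Kcnh1 (chr13:106252966-106253215, plus strand). Kcnh3 and Kcnb2 are named only. Capitals mark GC boxes, GGGCGG on either strand, the core of the site that Sp1-type factors bind.
Kcnc1: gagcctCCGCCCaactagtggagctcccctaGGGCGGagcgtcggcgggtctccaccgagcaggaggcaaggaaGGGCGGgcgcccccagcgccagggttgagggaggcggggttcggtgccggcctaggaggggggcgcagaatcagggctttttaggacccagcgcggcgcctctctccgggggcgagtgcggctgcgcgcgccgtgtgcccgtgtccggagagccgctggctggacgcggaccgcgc
Kcnd3: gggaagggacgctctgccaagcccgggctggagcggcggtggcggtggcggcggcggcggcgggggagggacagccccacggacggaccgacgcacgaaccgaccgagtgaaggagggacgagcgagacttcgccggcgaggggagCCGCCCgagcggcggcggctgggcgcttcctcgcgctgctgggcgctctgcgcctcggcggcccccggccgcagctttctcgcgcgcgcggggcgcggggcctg
Kcnh1: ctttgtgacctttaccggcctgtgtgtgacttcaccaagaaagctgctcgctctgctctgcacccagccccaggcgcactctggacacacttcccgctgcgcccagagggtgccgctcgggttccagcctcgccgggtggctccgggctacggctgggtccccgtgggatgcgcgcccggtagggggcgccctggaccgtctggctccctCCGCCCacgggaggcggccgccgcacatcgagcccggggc
The Kcnc1 window held 3 GC boxes and the Kcnd3 and Kcnh1 windows 1 each, and G and C made up 74.4%, 79.6% and 71.6% of their bases. Over the 61 windows of the 55 genes, 29 (47.5%) held a GC box, against 30.5% of all 33469 windows in the table, and the median GC share was 59.6% against 51.2%. TTCNNNGAA, the spaced palindrome that STAT5 recognises downstream of the GH receptor, was searched on both strands and overlaps no GC box. It occurred in 4 of the 61 windows (6.56%), against 7.67% of all windows, and in none of the 3 shown. A match or its absence in such a window is a description of letters only.

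The first question was how channel transcripts differed between 30 and 7 days of treatment. Over the mean of the 3 arms, Kcnd3 rose by 0.32 (SE 0.072), Kcnc1 by 0.15 (SE 0.041) and Kcnh1 by 0.080 (SE 0.020) in log2 signal at 30 days, and Kcnh3 fell by 0.20 (SE 0.039). These 4 of 53 probes (7.55%) passed the adjusted threshold of 0.05, with 3 higher and 1 lower, against 15.7% of all tested probes, of which 7.83% were higher and 7.9% lower. The Kcn share was below that of the array as a whole. Among probes averaging over 6.5 the shares were 4 of 18 Kcn probes (22.2%) and 21.7% of all such probes. At an unadjusted p under 0.05 there were 13 Kcn probes (24.5%), against 30% of all probes. Of the 53 differences 28 were positive, against 47.9% of all, with a median of 0.00086 against -0.0014. With the arms joined, the 30-day and 7-day rats overlapped for every Kcn probe, whereas 0.357% of all probes did not overlap.

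Kcnd3 encodes Kv4.3, a pore subunit of A-type channels, which open below the firing threshold and inactivate within milliseconds. At 30 days its log2 signal was 7.63, 7.83, 7.60 and 7.40 in dw/dw GH rats, 7.83, 7.69, 7.63 and 7.66 in dw/dw saline rats and 8.33, 7.64, 8.02 and 7.97 in HZ rats. At 7 days it was 7.18, 7.65, 7.55 and 7.61 in dw/dw GH rats, 7.43, 7.47, 7.39 and 7.32 in dw/dw saline rats and 7.19, 7.55, 7.44 and 7.58 in HZ rats. All HZ rats and all dw/dw saline rats at 30 days lay above their counterparts at 7 days, whereas the dw/dw GH groups overlapped. The difference over the arms was a fold of 1.25 (limma adjusted p = 0.0049). Taken arm by arm, with the contrasts of the dw/dw arms added after the data were seen, it was 0.12 in dw/dw GH rats (SE 0.124, adjusted p = 0.73), 0.30 in dw/dw saline rats (SE 0.124, adjusted p = 0.24) and 0.55 in HZ rats (SE 0.124, adjusted p = 0.033). The age difference of the dw/dw arms minus that of HZ was -0.34 (SE 0.152), with an unadjusted p of 0.037 and an adjusted p of 1, so the arms were not shown to differ. Of the other Kv4 pore genes, Kcnd2 differed by -0.032 (SE 0.066, adjusted p = 0.79) and Kcnd1 by -3.758e-05 (SE 0.0368, adjusted p = 1).

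Kcnh3 encodes Kv12.2, and in mice its loss makes hippocampal pyramidal cells more excitable. At 30 days the log2 signal of Kcnh3 was 9.91, 9.98, 9.91 and 9.81 in dw/dw GH rats, 9.94, 9.96, 10.06 and 9.98 in dw/dw saline rats and 9.85, 9.88, 9.79 and 9.87 in HZ rats. At 7 days it was 10.14, 10.09, 10.11 and 10.03 in dw/dw GH rats, 10.06, 10.11, 10.28 and 10.04 in dw/dw saline rats and 10.28, 10.32, 9.95 and 9.98 in HZ rats. The 30-day animals lay below the 7-day animals in the GH arm and in the HZ arm without overlap, and the dw/dw saline groups overlapped. The fold was 0.869 (limma adjusted p = 0.0019). By arm the difference was -0.19 in dw/dw GH, -0.14 in dw/dw saline and -0.28 in HZ rats, negative in each, and passed the threshold in HZ alone (adjusted p = 0.039).

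Kcnh1 encodes Kv10.1, the founding member of the ether-a-go-go channels. At 30 days its log2 signal was 8.60, 8.52, 8.53 and 8.50 in dw/dw GH rats, 8.61, 8.52, 8.64 and 8.66 in dw/dw saline rats and 8.57, 8.61, 8.64 and 8.69 in HZ rats. At 7 days it was 8.46, 8.52, 8.60 and 8.53 in dw/dw GH rats, 8.58, 8.45, 8.55 and 8.57 in dw/dw saline rats and 8.45, 8.46, 8.50 and 8.46 in HZ rats. The HZ groups did not overlap and the dw/dw groups did. The difference over the arms had a fold of 1.06 (limma adjusted p = 0.010), and it was 0.0090 in dw/dw GH, 0.072 in dw/dw saline and 0.16 in HZ rats. This call was lost without background correction (adjusted p = 0.054), with an intensity trend (adjusted p = 0.062) and with median scaling (adjusted p = 0.52). With the series matrix values the direction turned, at -0.047 (adjusted p = 0.14), and with these centred per array the difference was 0.066 (adjusted p = 0.075).

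Kcnc1 encodes Kv3.1, the fast delayed rectifier of rapidly firing interneurons. At 30 days its log2 signal was 8.19, 8.20, 7.98 and 8.03 in dw/dw GH rats, 8.14, 8.11, 8.11 and 8.14 in dw/dw saline rats and 8.07, 8.19, 7.999 and 8.19 in HZ rats. At 7 days it was 8.07, 7.96, 7.89 and 8.05 in dw/dw GH rats, 7.92, 7.90, 8.04 and 8.11 in dw/dw saline rats and 7.77, 7.78, 8.06 and 8.05 in HZ rats. Every arm overlapped between the time points, and the adjusted p of 0.022 (limma, fold 1.11) rose to 0.20 with median scaling. With the series matrix values the difference was 0.019 (adjusted p = 0.72). Both Kcnc2 probes also had positive differences, 0.098 (SE 0.053, adjusted p = 0.23) for the probe with the higher mean signal and 0.19 (SE 0.071, adjusted p = 0.074) for the other. All 3 Kv3 probes were thus positive, 1 of them past the threshold.

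**Figure D2:**
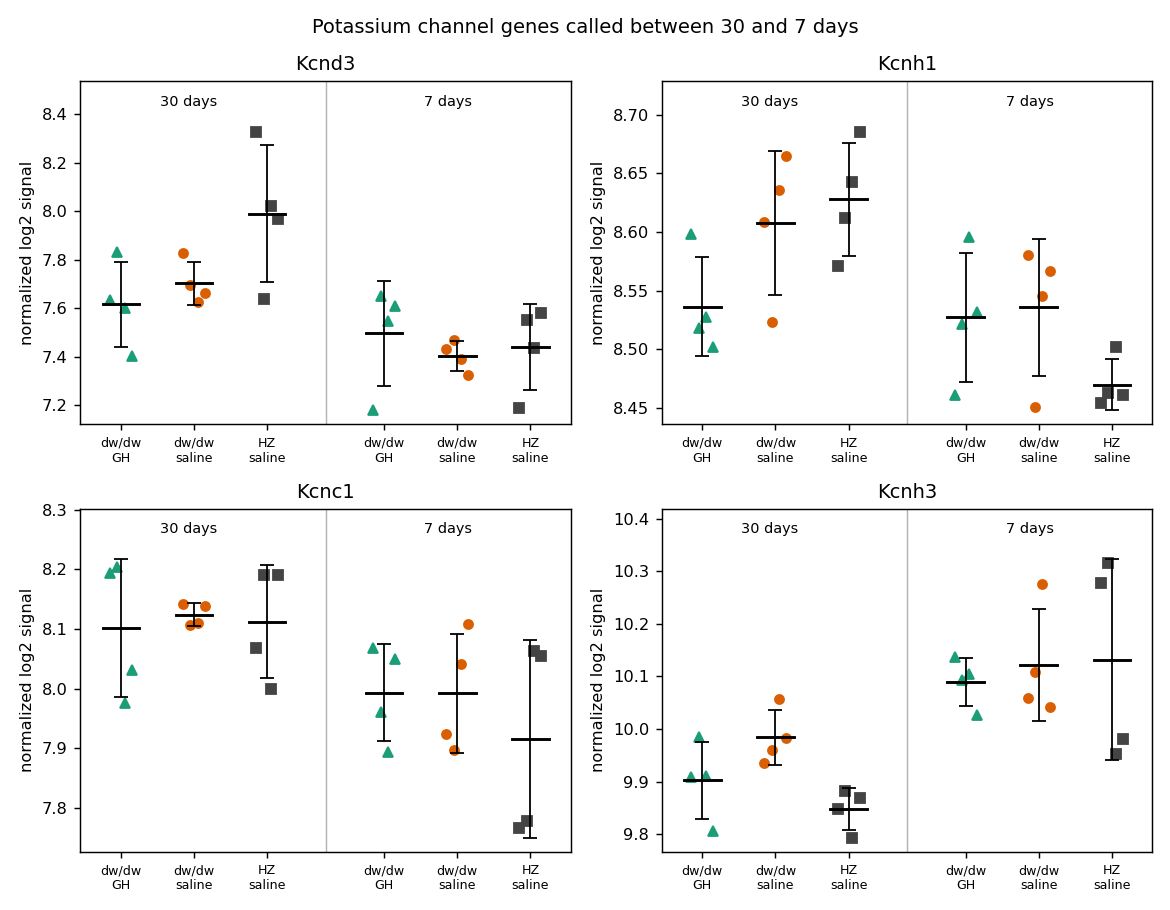
Normalized log2 signal of Kcnd3, Kcnh1, Kcnc1 and Kcnh3 on each of the 24 arrays, with group means (thick bars) and SD (thin bars), 30 days left of 7 days and dw/dw GH, dw/dw saline and HZ saline within each. The 4 HZ values of Kcnd3 at 30 days run up to 8.33, and no HZ value at 7 days exceeds 7.58. The vertical axes differ between panels and do not start at 0.

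Markers of other cells moved with the time points as well. All 6 interneuron markers were positive (median 0.19), and 3 passed the test, namely Sst (0.39), Gad1 (0.21) and Slc32a1 (0.17), and Kcnc1 shared their direction. Their mean log2 level over the list ran from 8.46 to 8.67 in dw/dw GH, 8.48 to 8.64 in dw/dw saline and 8.46 to 8.64 in HZ rats at 30 days. At 7 days the mean level of the list ran from 8.35 to 8.43 in dw/dw GH, 8.10 to 8.51 in dw/dw saline and 8.19 to 8.44 in HZ rats. All 6 oligodendrocyte markers were negative, with 4 past the test and a median of -0.24, as were all 4 precursor markers (2 past it), all 8 markers of meninges and fibroblasts (2 past it) and all 3 tested red blood cell genes (3 past it, median -1.28). Of the neuronal markers 4 of 7 were positive and Camk2a was lower (-0.23, adjusted p = 0.0011). Of 5 astrocyte markers 2 were positive and 1 was called lower, of 5 microglial markers 3 were positive and 1 was called lower, of 3 endothelial markers 1 was positive and called, and both tested choroid plexus markers were positive with no call. The part of these cell types in the channel differences was not tested.

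Within the HZ controls alone, 3 Kcn probes passed between 30 and 7 days (5.66% of 53), against 2.3% of all probes, of which 1.04% were higher and 1.25% lower. They were Kcnh1 (0.16, SE 0.035, limma adjusted p = 0.029), Kcnd3 (0.55, SE 0.124, adjusted p = 0.033) and Kcnh3 (-0.28, SE 0.068, adjusted p = 0.039). Among probes averaging over 6.5 these were 3 of 18 (16.7%), against 3.58% of all such probes. At an unadjusted p under 0.05 there were 7 Kcn probes, against 17.3% of all, and 26 of the 53 differences were positive, against 48.6%. The groups did not overlap for 5 Kcn probes, against 8.61% of all probes. Beside those 3 they were Kcnj16 (Kir5.1, the partner of the astrocytic Kir4.1), higher by 0.040, and Kcnn1 (SK1, a calcium-activated channel), which lay 0.023 below. These calls depended on the scaling, the filter and single rats, as did the calls of all probes, which numbered 264 in the main setting. With median scaling the Kcn count was 0 (limma adjusted p = 0.37 for Kcnh1, 0.15 for Kcnd3 and 0.36 for Kcnh3), and 9 of all probes passed. Without a filter the Kcn count was 1, Kcnh1, and 93 of all 22226 probes passed. It was also 0 without HZ replicate 1 or 2 at 7 days or replicate 3 or 4 at 30 days, where 53, 66, 70 and 61 of all probes passed. The count was 1, Kcnh1, without HZ replicate 1 at 30 days, where 41 of all probes passed. Without HZ replicate 2 at 30 days the Kcn count was 2, Kcnd3 and Kcnh1. Kcnh1 lost its call without background correction (limma adjusted p = 0.087) and with an intensity trend (adjusted p = 0.097). With the series matrix values its difference was 0.026 (adjusted p = 0.72), and 0.14 with these centred per array (adjusted p = 0.11). Kcnh3 was no longer called with array weights (-0.23, adjusted p = 0.062). In dw/dw saline rats 1 Kcn probe, Kcnb2, passed (-0.046, SE 0.011, adjusted p = 0.036), against 2.13% of all probes. In dw/dw GH rats 0 did in the limma fit, against 0.871%, with 2 at an unadjusted p under 0.05.

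Over the mean of the 3 arms, no tested probe of the other subfamilies passed between the time points in the main setting. Kcnb2, the 1 Kv2 probe, differed by -0.015 (SE 0.0065, adjusted p = 0.12). With the series matrix values it was called, at -0.39 (adjusted p = 0.00017), and also with these centred per array, at -0.28 (adjusted p = 0.0098). Where a subfamily is given by 1 probe, that probe had its highest mean signal. The values were -0.11 (SE 0.046, adjusted p = 0.11) for Kcnmb4, the neuronal β4 subunit of the BK channel, and -0.10 (SE 0.054, adjusted p = 0.21) for Kcnip2. Kcng1 gave 0.082 (SE 0.059), Kcnk1 0.066 (SE 0.074), Kcnj9 (Kir3.3) 0.034 (SE 0.019) and Kcnq5 -0.039 (SE 0.052). Further values were Kcnt2 (Slick, a sodium-activated channel) at -0.042 (SE 0.016, adjusted p = 0.083), Kcnab1 (Kvβ1, which confers inactivation on Kv1 channels) at 0.0095, Kcnn3 (SK3) at 0.0091, Kcna6 at 0.0047 and Kcne4 (a single-span subunit that lowers Kv1 currents) at -0.0048. Of the 10 tested inward rectifier probes 6 were positive, from -0.020 to 0.040, and of the 5 tested leak channel probes 2 were.

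**Figure D3:**
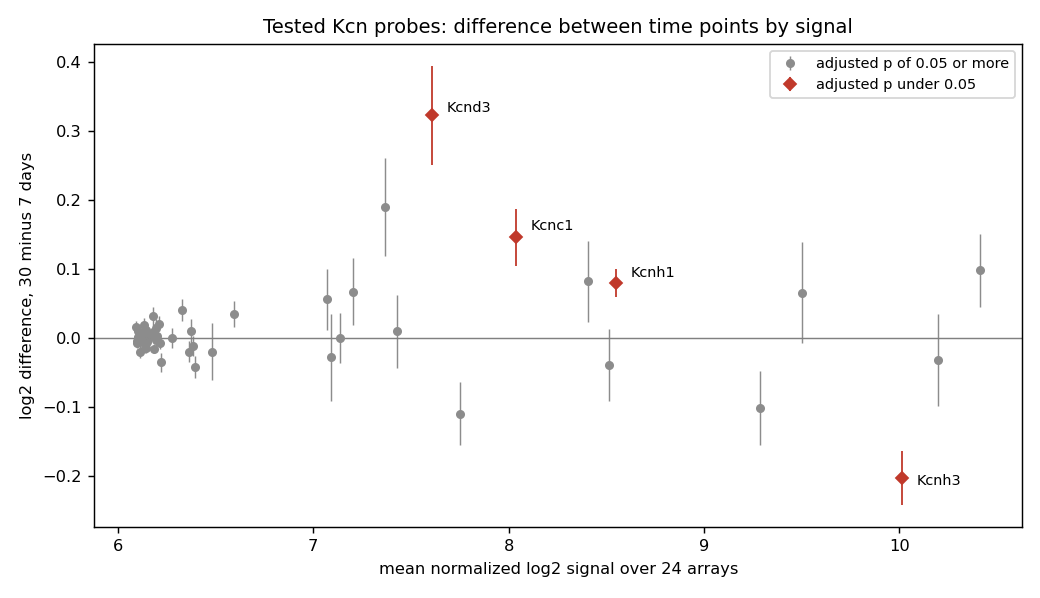
Log2 difference between 30 and 7 days, mean of the 3 arms, for the 53 tested Kcn probes against the mean normalized log2 signal of the probe over 24 arrays, with SE bars. Red diamonds passed the adjusted threshold of 0.05. Probes averaging under 6.5 crowd around 0, and the 4 called probes average 7.61 or more.

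The second question was how saline-treated dwarfs differed from HZ controls. At 30 days no Kcn probe passed the adjusted threshold (0 of 53, against 0% of all probes, limma), the lowest adjusted p being 0.29 for Kcnb2. At an unadjusted p under 0.05 there were 5 Kcn probes (9.43%), against 7.14% of all, namely Kcnb2, Kcna6, Kcnd3, Kcnip4 and Kcnk2. Of the 53 differences 33 were positive, with a median of 0.0098, and of all probes 52.7% were positive, with a median of 0.0021.

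Kcnb2 encodes Kv2.2, a delayed rectifier of cell bodies. At 30 days its log2 signal was 6.12, 6.11, 6.11 and 6.10 in dw/dw saline rats, against 6.15, 6.19, 6.16 and 6.16 in HZ rats. The dw/dw GH rats of that age had 6.14, 6.11, 6.12 and 6.13. At 7 days the values were 6.14, 6.12, 6.15 and 6.14 in dw/dw GH, 6.15, 6.17, 6.14 and 6.17 in dw/dw saline and 6.15, 6.17, 6.15 and 6.14 in HZ rats. At 30 days neither dw/dw group overlapped with HZ, and at 7 days both did. The deposited bead signals of Kcnb2 at 30 days were 55.4, 52.2, 52.4 and 52.1 in dw/dw saline rats, against 58.5, 61.7, 58.0 and 61.8 in HZ rats. At 7 days they were 69.3, 68.2, 65.0 and 65.8 in dw/dw saline rats, against 61.9, 55.8, 62.6 and 57.4 in HZ rats. Before normalization the order at 7 days was thus opposite to that at 30 days, but whole arrays differed too. Median deposited signals of all probes at 7 days were 53.7 to 56.7 in dw/dw saline and 46.5 to 52.7 in HZ rats. At 30 days these medians were 49.3 to 50.4 and 47.5 to 50.8. The Kcnb2 probe averaged 6.14 and was detected on 23 arrays, so it lay just above background, where median deposited signals of all probes ran from 46 to 56.7.

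The dw/dw saline minus HZ difference of Kcnb2 at 30 days was -0.050 (SE 0.011, limma adjusted p = 0.29), a fold of 0.966 on this compressed scale. With the authors' series matrix values, which look background-subtracted but whose making is not stated, it was -0.74 (adjusted p = 0.043). The change of this difference from 7 to 30 days was -0.057 (SE 0.016, unadjusted p = 0.0020, adjusted p = 1). With both dw/dw arms joined, a contrast added after the data were seen, the difference from HZ was -0.043 (SE 0.0098, adjusted p = 0.27) at 30 days and -0.0046 (SE 0.0098, adjusted p = 1) at 7 days.

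**Figure D4:**
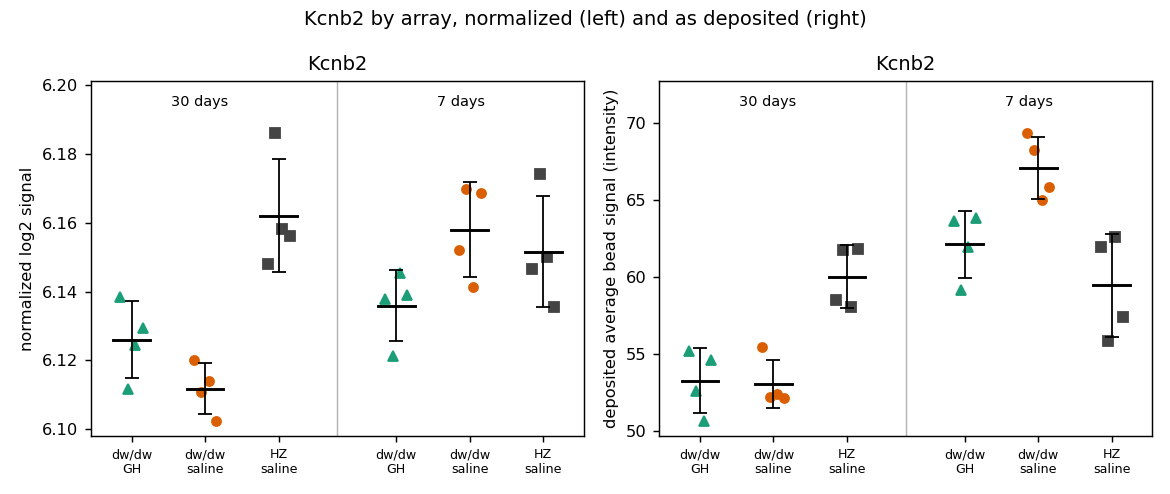
Kcnb2 on each of the 24 arrays, as normalized log2 signal (left) and as the deposited bead signal intensity (right), with group means and SD. On both scales the 4 HZ rats at 30 days lie above all 8 dw/dw rats of that age. At 7 days the dw/dw saline rats have the highest deposited signals, from 65.0 to 69.3, and overlap HZ on the normalized scale. The median deposited signals of all probes at 7 days are also higher on the dw/dw saline than on the HZ arrays. The vertical axes do not start at 0.

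Kcnd3 averaged 7.70 ± 0.089 in dw/dw saline rats and 7.99 ± 0.283 in HZ rats at 30 days (SD, n = 4 each). The groups overlapped, since 1 HZ rat had 7.64, and the difference was -0.29 (SE 0.124, limma adjusted p = 0.67). It was -0.17 without HZ replicate 1, the highest rat at 8.33, and -0.40 without replicate 2, the lowest. With both dw/dw arms joined the difference was -0.33 (SE 0.108, adjusted p = 0.57) at 30 days and 0.011 (SE 0.108, adjusted p = 1) at 7 days. The change of the saline difference from 7 to 30 days was -0.25 (SE 0.176, adjusted p = 1).

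Other differences between dw/dw saline and HZ rats at 30 days were small and none passed. Kcna6 had 6.1975, 6.2004, 6.19 and 6.18 in dw/dw saline rats, against 6.18, 6.12, 6.14 and 6.15 in HZ rats, a difference of 0.044 (SE 0.018, limma adjusted p = 0.65). Kcnk2 (TREK1, a leak channel opened by stretch and lipids) had 7.23, 7.46, 7.45 and 7.23 in dw/dw saline rats, against 7.01, 7.22, 7.16 and 7.26 in HZ rats, a difference of 0.18 (SE 0.083, adjusted p = 0.68). Both genes lay higher on average in the dwarfs, with overlap. Kcnip4 (KChIP4, an auxiliary subunit that slows Kv4 inactivation) had 7.07, 6.92, 6.97 and 7.04 in dw/dw saline rats, against 7.26, 7.01, 7.22 and 7.21 in HZ rats, a difference of -0.18 (SE 0.077, adjusted p = 0.67). Kcnh3 did not overlap at 30 days, with 9.94 to 10.06 in dw/dw saline rats, above 9.79 to 9.88 in HZ rats, a difference of 0.14 (SE 0.068, adjusted p = 0.69). Groups without overlap numbered 2 of 53 Kcn probes, against 4.34% of all probes.

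At 7 days 0 of 53 Kcn probes passed (0% of all, limma) and 0 had an unadjusted p under 0.05, against 6.6% of all probes. Positive differences numbered 31, against 52.4% of all. The smallest p belonged to Kcnh1, whose dw/dw saline values of 8.58, 8.45, 8.55 and 8.57 overlapped with 8.45, 8.46, 8.50 and 8.46 in HZ rats (difference 0.066, SE 0.035, adjusted p = 0.79). The other probes with the 2 highest or 2 lowest moderated t were Kcnk15 (TASK5, a leak channel subunit not known to conduct alone) at 0.023, Kcna4 (Kv1.4, an A-type subunit of axons) at -0.029 and Kcnj3 at -0.021. Kcnt1 (Slack, a sodium-activated channel) was the 1 Kcn probe without overlap, at 6.14 to 6.17 in dw/dw saline and 6.12 to 6.14 in HZ rats, against 2.81% of all probes. Kcnd3 differed by -0.035 (SE 0.124) and Kcnb2 by 0.0064 (SE 0.011).

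Averaged over both time points, 0 Kcn probes passed (0% of all, limma) and 4 had an unadjusted p under 0.05, against 9.78% of all. Positive differences numbered 31 of 53, against 54% of all. The 4 were Kcnb2 (-0.022, SE 0.0080, adjusted p = 0.35), Kcna6 (0.034, SE 0.013, adjusted p = 0.36), Kcnj3 (-0.021, SE 0.0090, adjusted p = 0.44) and Kcnab1 (0.15, SE 0.065, adjusted p = 0.47). For Kcnd3 the mean difference was -0.16 (SE 0.088, adjusted p = 0.58). For the change of the dwarf difference between the times, 0 passed (0% of all, limma) and 2 had an unadjusted p under 0.05, against 4% of all. Positive differences numbered 22, against 49.9% of all. The 2 were Kcnb2, given above, and Kcnip4 at -0.30 (SE 0.109, adjusted p = 1). Kcnk2 (0.22, SE 0.118) and Kcne4 (0.036, SE 0.020) had the largest positive moderated t.

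The third question was how GH treatment changed channel transcripts in dwarfs. At 30 days 0 of 53 Kcn probes passed between dw/dw GH and dw/dw saline rats (0% of all, limma), and 2 had an unadjusted p under 0.05, against 3.36% of all. These were Kcne4 and Kcns1. Kcne4 had 6.05, 6.09, 6.09 and 6.10 in dw/dw GH rats, against 6.10, 6.11, 6.12 and 6.14 in dw/dw saline rats, a difference of -0.035 (SE 0.014, adjusted p = 1). Its GH values lay at the lower end with the groups meeting at 6.10, on a probe detected on 13 arrays. For Kcns1 (Kv9.1, a silent subunit) the difference was -0.040 (SE 0.016, adjusted p = 1). The largest positive moderated t belonged to Kcnip4 (0.12, SE 0.077) and Kcnd2 (0.17, SE 0.115). Of the 53 differences 21 were positive (median -0.0082), against 49.2% of all probes (median -0.00045). No Kcn probe was without overlap, against 2.32% of all.

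Of the 3 channels with the lowest p in dw/dw saline against HZ at 30 days, none passed between dw/dw GH and dw/dw saline rats. Kcna6 differed by -0.012 (SE 0.018, 95% interval -0.050 to 0.025, limma adjusted p = 1). Kcnd3 averaged 7.62 ± 0.175 in dw/dw GH rats and 7.70 ± 0.089 in dw/dw saline rats (SD, n = 4 each), a difference of -0.086 (SE 0.124, 95% interval -0.35 to 0.17, limma adjusted p = 1). Kcnb2 differed by 0.014 (SE 0.011, interval -0.0093 to 0.038, adjusted p = 1). All 3 intervals include 0.

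At 7 days 0 of 53 Kcn probes passed (0% of all, limma) and 0 had an unadjusted p under 0.05, against 4.65% of all. The smallest p belonged to Kcnk15, with 6.15, 6.13, 6.15 and 6.14 in dw/dw GH rats, against 6.15, 6.15, 6.21 and 6.17 in dw/dw saline rats. It differed by -0.025 (SE 0.013, adjusted p = 1), and 1 saline rat at 6.21 stood above the rest. Positive differences numbered 27 of 53, against 49.3% of all, and no Kcn probe was without overlap, against 3.12% of all. Kcnb2 differed by -0.022 (SE 0.011), Kcnd3 by 0.092 (SE 0.124), Kcns1 by 0.026 (SE 0.016) and Kcnd1 (Kv4.1) by 0.10 (SE 0.064).

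Averaged over both times, 0 passed (0% of all, limma) and 2 had an unadjusted p under 0.05, against 2.92% of all. Positive differences numbered 23, against 49% of all. Kcnt1 had 6.15, 6.14, 6.13 and 6.13 in dw/dw GH rats, against 6.15, 6.16, 6.22 and 6.14 in dw/dw saline rats at 30 days. At 7 days it had 6.17, 6.14, 6.10 and 6.13 in dw/dw GH rats, against 6.14, 6.17, 6.16 and 6.16 in dw/dw saline rats. The groups overlapped at both times, and the mean difference was -0.027 (SE 0.012, adjusted p = 1). The other was Kcnk15 (-0.019, SE 0.0088), and the largest positive moderated t belonged to Kcnj16 (0.021, SE 0.017) and Kcnq5 (0.070, SE 0.064). Kcnd3 and Kcnb2 differed by 0.0029 and -0.0039.

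The change of the GH difference from 7 to 30 days gave 0 calls (0% of all, limma) and 4 unadjusted p under 0.05, against 5.15% of all. Positive differences numbered 25, against 50.1% of all. The smallest p belonged to Kcns1, with 6.11, 6.15, 6.10 and 6.13 in dw/dw GH rats, against 6.14, 6.17, 6.18 and 6.18 in dw/dw saline rats at 30 days. At 7 days Kcns1 had 6.18, 6.16, 6.15 and 6.16 in dw/dw GH rats, against 6.13, 6.10, 6.18 and 6.14 in dw/dw saline rats. The GH rats were lower on average at 30 days and higher at 7 days, a change of -0.066 (SE 0.023, adjusted p = 0.92). Kcne4 changed by -0.042 (SE 0.020), Kcnip4 by 0.26 (SE 0.109), Kcnb2 by 0.036 (SE 0.016) and Kcnd3 by -0.18 (SE 0.176).

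The last comparison set GH-treated dwarfs against HZ controls. It uses the HZ rats of the second question and the GH rats of the third, so the 3 sets of differences share arrays. At 30 days 0 of 53 Kcn probes passed (0% of all, limma) and 3 had an unadjusted p under 0.05, against 5.48% of all. They were Kcnb2 at -0.036 (SE 0.011, adjusted p = 0.89), Kcnd3 at -0.37 (SE 0.124, adjusted p = 0.89) and Kcnh1 at -0.092 (SE 0.035, adjusted p = 0.89). Kcnb2 was the 1 probe without overlap, with 6.11 to 6.14 in dw/dw GH and 6.15 to 6.19 in HZ rats, against 3.19% of all probes. Of the 53 differences 22 were positive, against 52.6% of all. Kcnd3 ran from 7.40 to 7.83 in dw/dw GH rats, against 7.64 to 8.33 in HZ rats. Kcna6 (0.032, SE 0.018) and Kcnj14 (Kir2.4, an inward rectifier; 0.043, SE 0.030) had the largest positive moderated t.

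At 7 days 0 passed (0% of all, limma) and 0 had an unadjusted p under 0.05, against 4.06% of all. The smallest p belonged to Kcna4, with 6.09, 6.10, 6.07 and 6.09 in dw/dw GH rats, against 6.08, 6.10, 6.12 and 6.16 in HZ rats, a difference of -0.027 (SE 0.016, adjusted p = 1). The groups overlapped, and the probe was detected on 11 arrays. Positive differences numbered 29 of 53, against 50.9% of all, and no Kcn probe was without overlap, against 2.39% of all. Kcnj3 differed by -0.018 (SE 0.013), Kcnh1 by 0.058 (SE 0.035), Kcne3 (a single-span subunit) by 0.018 (SE 0.014), Kcnd3 by 0.057 (SE 0.124) and Kcnb2 by -0.016 (SE 0.011).

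**Figure D5:**
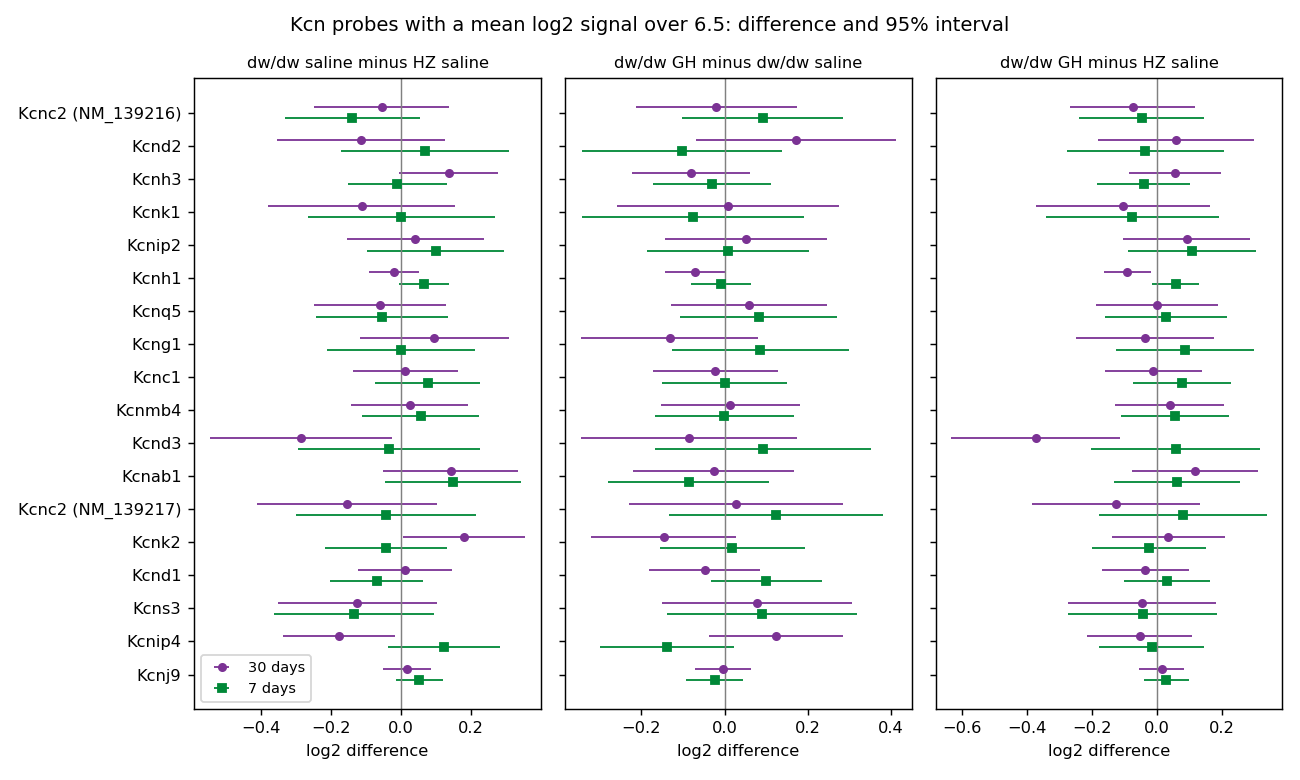
Log2 differences with 95% intervals for the 18 Kcn probes averaging over 6.5, for dw/dw saline minus HZ saline, dw/dw GH minus dw/dw saline and dw/dw GH minus HZ saline (left to right), at 30 days (purple circles) and 7 days (green squares). Kcnd3 has the most negative value of the left panel at -0.29 and of the right panel at -0.37. Kcnc2 appears with both of its probes.

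Across the 18 probes averaging over 6.5, the dw/dw saline minus HZ difference at 30 days ran from -0.29 to 0.18, the GH minus saline difference from -0.15 to 0.17 and the dw/dw GH minus HZ difference from -0.37 to 0.12. The SE of a single difference lay between 0.033 and 0.128. The spread between 4 rats therefore set how small a difference could be seen, and the values above do not show that the groups were alike.

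By subfamily, no group of probes had a call in any comparison within a time point. All 3 Kvβ probes were positive in dw/dw saline against HZ at both times, from 0.0077 to 0.14 at 30 days and from 0.0029 to 0.15 at 7 days. Of these, Kcnab2 and Kcnab3 averaged log2 signals of 6.19 and 6.13, near background. Both sodium-activated probes, Kcnt1 and Kcnt2, were positive at both times as well, from 0.018 to 0.030. They averaged log2 signals of only 6.15 and 6.39. In dw/dw saline against HZ, 52.7% of all probes were positive at 30 days and 52.4% at 7 days. Kv3 probes, among them both of Kcnc2, were all negative in dw/dw GH against HZ at 30 days, from -0.13 to -0.011. There 52.6% of all probes were positive. Of the 10 tested inward rectifiers, 5 were positive in dw/dw saline against HZ and 6 in dw/dw GH against dw/dw saline at 30 days. Of the 5 tested ether-a-go-go type probes these counts were 3 and 1, and of the 5 leak channel probes 4 and 1.

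Proteins that bind potassium channels were followed in a list of 28 genes, of which 20 were on the array and 17 tested. Between 30 and 7 days 13 of the 17 were positive and 2 passed (median 0.028), against 15.7% of all probes. They were Calm3, 1 of the genes for calmodulin, at 0.18 (limma adjusted p = 0.00081) and Dpp6, the dipeptidyl peptidase-like partner of Kv4 channels, at 0.051 (adjusted p = 0.0070). No partner passed within a time point. In dw/dw saline against HZ at 30 days 9 were positive and 8 negative, from -0.18 for Lgi1, a secreted partner of Kv1 complexes, to 0.18 for Vapb, a membrane protein of Kv2 clusters. In dw/dw GH against HZ 8 were positive, from -0.17 to 0.15.

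Of 14 genes of potassium transport outside channels, 9 were on the array and 8 tested. Between the time points 5 were positive and 3 passed, against 15.7% of all probes. Atp1b1, a subunit of the sodium-potassium pump, was higher by 0.091 (limma adjusted p = 0.036) and its regulator Fxyd1 by 0.082 (adjusted p = 0.028) at 30 days, while the regulator Fxyd7 differed by -0.12 (adjusted p = 0.029). Slc12a5 (KCC2, the neuronal potassium-chloride cotransporter) differed by 0.085 (adjusted p = 0.056). None of the 8 passed in dw/dw saline against HZ at 30 days, where 4 were positive, or in dw/dw GH against HZ, where 6 were.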

How the data were processed

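Illumina arrays of 24 rat hippocampi were analysed, with groups read from the source labels. The members, gene lists and tests were chosen with earlier results of these data known. Trizol extraction and labelling as biotin cRNA are recorded per the labels' protocols, and GenomeStudio 2010.2 per the submitters' processing notes, which state no role. For each of 22226 probes the deposited scanner table gives a bead intensity and a detection p-value, per the file headers. The authors' series matrix adds another deposited intensity value per probe, and how it was scaled and normalized is not given in the sources used here. These values look linear, background-subtracted and scaled within each slide, follow each array's scanner ranks (Spearman at least 0.9999972), and served as an alternative only, as log2 of values floored at 1. Column medians were 9.75 to 9.86 on the 7-day slide and 8.57 to 8.67 on the 30-day slide. Probe names come from the platform annotation; 13192 probes have 1 symbol, 0 several and 9034 none, and all 83 Kcn probes matched the RefSeq gene table of GRCr8 with 0 symbols changed.

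Scanner signals were corrected by normexp with the detection p-values, given an offset of 16, quantile normalized together and taken to log2 (neqc, limma 3.58.1, R 4.3.3). Group means were fitted to the 11487 tested probes (51.7%) with lmFit and eBayes (18 residual and 1.55 prior degrees of freedom), two-sided, in 12 comparisons. The Benjamini-Hochberg adjustment ran over all tested probes, with a threshold of 0.05. The procedure was tested on simulated data. Litters are not stated, and the main fit treated the rats as independent and unpaired. Its p-values set group differences against the spread between rats within groups, and cannot separate a group from its position block. The design text gives 4 animals per group.

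Genes were named by rule: Kcnd3 and Kcnb2; every Kcn probe past the threshold; in the other 10 comparisons the 2 highest and 2 lowest moderated t; and the brightest tested probe of each subfamily. Probes without overlap, other probes with an unadjusted p under 0.05 and the second Kcnc2 probe were named after their values were seen. The limits of 6.5 and 6.2, the age contrasts within each dw/dw arm, the contrasts with dw/dw arms joined, and the centred series matrix were chosen after seeing the data. Replicate numbers were checked for pairing: over 24 same-numbered pairs within a time point the deviations from group means correlated at -0.277 to 0.492, with 12 of 24 over 0.1. Every one of the 4 pairs passed 0.1 only for dw/dw GH against HZ at 7 days (0.152 to 0.361), where the numbers count as pairing the rats by this check, from the data and not from the labels. In the other comparisons they do not, though at 30 days the pairs of replicate 1 correlated at 0.422 to 0.492, the highest values of the 24. Alternatives covered the offset, scaling, background correction, filter, series matrix, position, array weights, intensity trend, replicate block and leaving out each array. The number of arrays limits the precision.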

Additional observations from a re-analysis of the deposited data

Results flagged for a closer look

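In 174 groups of 4 arrays examined for the Kcn probes the text names, 5 held 1 rat set apart from the other 3 by more than Dixon's 95% critical value, and chance alone would mark about 1 group in 20. Kcnd2 (Kv4.2) was 10.30 in replicate 1 of dw/dw saline at 30 days, and the other 3 rats lay between 9.9955 and 10.04. Kcnc2 (Kv3.2) was 9.90 in replicate 3 of dw/dw saline at 7 days, below the others at 10.39 to 10.47. Kcnab1 (Kvβ1) was 7.62 in replicate 2 of dw/dw GH at 30 days, above 7.40 to 7.43. Near background, Kcnn3 (SK3) was 6.22 and Kcnj3 (Kir3.1) 6.08 in replicate 2 of dw/dw GH at 7 days, where the other rats had 6.15 and 6.10. None of these values carries a call in the comparisons above.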

How the results depend on the processing

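The counts of called Kcn probes were within 1.5 times of those reported in 123 of 128 combinations of comparison and setting, and in 283 of 288 that left out 1 array. Most of these combinations belong to comparisons without a call among all probes. There 0 against 0 counted as the same, so the totals say little about the calls. All 5 counts that moved without 1 array were those of HZ rats between the time points. In dw/dw saline against HZ at 30 days the series matrix values gave 1 call, Kcnb2 (-0.74), in place of 0. It was the only call among all 11487 tested probes. Between 30 and 7 days over the arms, median scaling left 2 of the 4 calls, Kcnd3 and Kcnh3, with 3.06% of all probes called. The series matrix values gave 16 calls among the 53 Kcn probes, against 45.5% of all probes. There the median of all probes shifted by -0.135, and 4.9% of all calls were higher at 30 days, against 45% with median scaling. Centred per array, a setting chosen after seeing the data, the same values gave 6 Kcn calls, against 17.3% of all probes. Kcnd3 was at 0.32, Kcnh3 at -0.22, Kcnc1 at 0.13 and Kcnb2 at -0.28. Of all calls 40.8% were higher, and Kcnh1 was no longer called (0.066). In HZ rats between the time points, the 3 calls became 0 with median scaling, 1 without a filter, and 0 to 3 without 1 array. The share of all probes called there was 2.3% in the main setting, 0.0783% with median scaling and 0.418% without a filter. In the mean of the arms the 4 calls held without any 1 array, with Kcnd3 between 0.29 and 0.36.

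Directions turned, none of them in a called value except that of Kcnh1. Between the time points the series matrix values gave -0.047 for Kcnh1, -0.029 for Kcnj9, -0.099 for Kcnab1, -0.091 for Kcna6, -0.049 for Kcnc2, -0.042 for Kcng1, -0.035 for Kcnn3, -0.054 for Kcnk1 and, in HZ rats, -0.018 for Kcnb2. Median scaling gave Kcnd3 0.070 in dw/dw saline against HZ at 7 days and -0.013 in the mean GH difference. With position as a covariate, Kcnb2 was -0.0038 in dw/dw saline against HZ at 7 days, Kcnd1 -0.10 in GH against saline at 7 days, and the mean GH differences of Kcnb2, Kcnj16 and Kcnq5 were 0.0012, -0.017 and -0.033. Without 1 array, Kcnd3 ran from -0.12 to 0.012 in dw/dw saline and from -0.026 to 0.16 in dw/dw GH against HZ at 7 days, and from -0.033 to 0.055 in the mean GH difference, and Kcnab1 from -0.022 to 0.033 between the time points. The cause was not tested. Over named probes and settings, 727 of 767 values kept their direction and side of the threshold, and 1744 of 1776 without 1 array.

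The replicate numbers met the pairing check for dw/dw GH against HZ at 7 days alone. A replicate block within each time point left the Kcn calls at 0 in the 10 comparisons other than age. For age, the block joined equal replicate numbers of both time points, which are different rats, so it cannot test pairing. With that block the Kcn calls stayed at 4 over the arms and at 3 in HZ rats. Slide as a block was not run, since group means already hold it within a time point and age could not be fitted with it. Probes near a log2 signal of 6.1 lie close to background.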
